A study of Caenorhabditis elegans with 12 samples.

Results

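The 6 genes described here, pals-17, pals-22, pals-25, pnp-1, drh-1 and zip-1, are known upstream activators and repressors of the intracellular pathogen response of the nematode Caenorhabditis elegans. They were taken by gene name from a table of 46987 annotated features, and all 6 passed the filter on low counts that left 16665 genes to test. The libraries were made from poly(A) RNA of whole worms of the wild-type strain Bristol N2 at the L4 larval stage, grown at 25 °C on agar with Escherichia coli OP50. About 1000 worms were pooled per library. The worms were raised from the egg for about 46 h on agar with AO168=O at a dose of 400 ng/g, 2000 ng/g or 10000 ng/g, or with none. The solvent, 0.01% ethanol, was in the agar of all 4 groups, the controls included, and each group held 3 libraries. AO168=O forms when a phosphite antioxidant added to plastics is oxidised. The labels place all 12 libraries in the same batch and do not link libraries of different groups.

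The intracellular pathogen response is a set of genes that worms switch on in the intestine and epidermis during infection by microsporidia or Orsay virus, and under proteotoxic stress. Many of the induced genes belong to the pals family, whose proteins share a divergent sequence signature. PALS-22 and PALS-17 hold the response off, and so does the purine nucleoside phosphorylase PNP-1. PALS-25 acts as an activator that PALS-22 keeps in check, DRH-1 is a RIG-I-like helicase that senses viral RNA, and the bZIP transcription factor ZIP-1 is needed to induce part of the response genes. Several of these proteins are known to act through interaction with other proteins, so the level of the mRNA measured here is not a measure of their activity.

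The repressors and the activators lie on chromosomes III and IV, and coordinates refer to WBcel235. The gene pals-22 (WBGene00016216) spans chromosome III from 132418 to 134401 on the plus strand, has 4 exons and holds a coding sequence of 852 bases, the stop codon left out of this and the lengths below. The gene pals-25 (WBGene00020540), from 134494 to 137975, starts 92 bases after the end of pals-22 on the same strand, with 5 exons and 915 coding bases, and the pair is known to form an operon. On the minus strand of chromosome III, pals-17 (WBGene00022346) runs from 1390450 to 1391852, with 6 exons and 753 coding bases, and its nearest protein-coding gene on the right, 8117 bases away, is the family member pals-16. The longest of the 6 annotated transcripts of zip-1 (WBGene00006986, chromosome III, 12333745 to 12345384, plus strand) holds 1440 coding bases. On chromosome IV, pnp-1 (WBGene00019298, 292423 to 298304, minus strand) holds at most 954 and drh-1 (WBGene00001090, 6607376 to 6613353, minus strand) at most 3111.

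Total counts per library ran from 36897811 to 47211800. The largest principal component held 31.3% of the variance over all genes, with control replicate 3 at -68.7 and 400 ng/g replicate 2 at 67.1. On the next component, which held 24.8%, replicates 1 and 2 at 400 ng/g stood apart from each other, at -65.1 and 40.7. Where leaving out 1 of them changed a call of a regulator or moved a log2 difference from control above 0.1 by over 1.5 times, the value without it is given. Fold changes, standard errors (SE) and p-values come from edgeR's quasi-likelihood test over all 12 libraries, with a Benjamini-Hochberg adjustment for the 16665 genes and a threshold of 0.05. The p-values measure the spread between these libraries. In RNA from whole worms, fewer cells of a type and less RNA per cell cannot be told apart.

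All 6 regulators were expressed in every library, at levels that differed widely between genes. Per length of transcript, pnp-1 was the most abundant, with a mean of 186 ± 24.9 FPKM (fragments scaled to gene length and library size, SD, n = 12), followed by zip-1 at 17.2 ± 2.83 FPKM and drh-1 at 11.2 ± 1.12 FPKM. The pals regulators followed, at 6.92 ± 1.08 FPKM for pals-17, 6.15 ± 0.674 FPKM for pals-22 and 3.39 ± 0.774 FPKM for pals-25. Over the 12 libraries the ranges of pals-17 (4.46 to 8.55 FPKM) and pals-22 (5.03 to 7.48 FPKM) overlapped, whereas every other pair of neighbours in this order was separated. The counts behind these levels ran from 6847 to 15483 for pnp-1 and from 89 to 240 for pals-25. Counting error was at most 10.6% of a value, in pals-25.

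**Figure D1:**
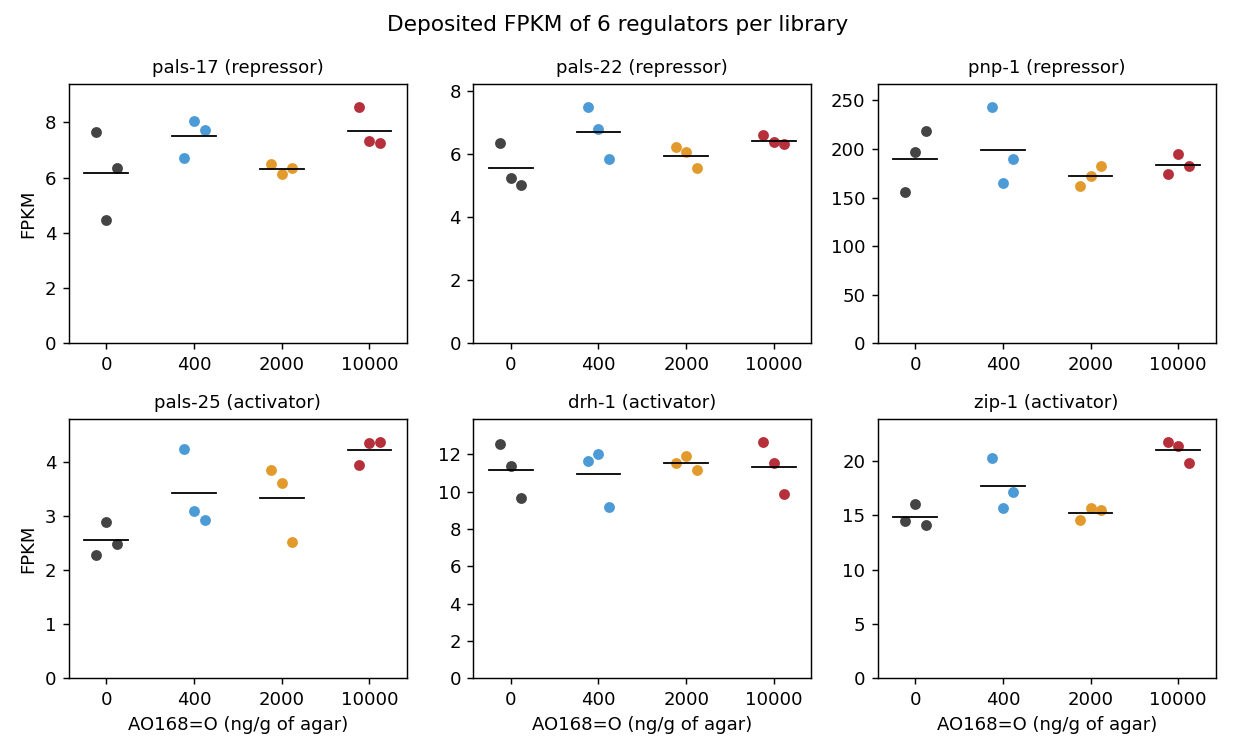
FPKM of the 6 regulators in each library (points) with the group mean (horizontal line, n = 3), by dose of AO168=O. At 10000 ng/g all 3 libraries of zip-1, from 19.8 to 21.7 FPKM, and of pals-25, from 3.95 to 4.37 FPKM, lie above all 3 controls.

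The comparison with the solvent control addresses whether exposure was accompanied by a different mRNA level of the regulators themselves. At 10000 ng/g none of the 6 passed the adjusted threshold, against 0.252% of all genes tested (42 of 16665, of which 35 rose and 7 fell). The largest differences were those of the activators zip-1 and pals-25, which were higher by 1.41-fold and 1.65-fold. For the same 2 of 6 genes, all exposed libraries lay above all controls, as they did for 16% of all genes, and the unadjusted p was under 0.05, as it was for 20.6% of all genes. The activator drh-1 and the repressor pnp-1 differed from control by less than 5% in either direction. DESeq2 put the same 2 of 6 past its threshold, and with them 6.02% of all genes it gave an adjusted p (969 of 16099).

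Among the activators, zip-1 had 30.8, 34.2 and 30.2 CPM (counts scaled to library size) in the controls and 46.1, 46.0 and 42.1 CPM at 10000 ng/g. The groups did not overlap, and the lowest exposed library was well above the highest control. The means were 31.8 ± 2.14 and 44.7 ± 2.29 CPM (SD, n = 3 each), a log2 difference of 0.49 ± 0.106 (SE), or 1.41-fold with a 95% interval of 1.20 to 1.65. Its edgeR p was 0.000539, the rank 110 of 16665, and the adjusted p was 0.0817. The adjusted p was 0.0465 when the fit held only the 2 groups compared, 0.00582 with DESeq2, 0.0226 without replicate 1 at 400 ng/g and 0.0257 without the 3 libraries at 400 ng/g. Over all 19 alternatives the log2 difference lay between 0.46 and 0.56 and the adjusted p between 0.00582 and 0.294, so that the call differed between alternatives and the direction did not. With only the 2 groups fitted, 431 genes passed in place of 42, and the unadjusted p of zip-1 was 0.000584.

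At the lower doses zip-1 did not follow the order of dose. It had 43.5, 34.0 and 36.2 CPM at 400 ng/g, where replicate 1 was the highest, and 30.8, 33.1 and 32.9 CPM at 2000 ng/g, inside the range of the controls. At 400 ng/g the log2 difference from control was 0.26 ± 0.105 (SE, adjusted p = 0.213 in edgeR), or 0.14 ± 0.0932 without replicate 1 (adjusted p = 0.363), and at 2000 ng/g it was 0.02 ± 0.106 (adjusted p = 0.980). Between the exposed groups, zip-1 was higher at 10000 than at 2000 ng/g by 0.47 ± 0.106 on the log2 scale (adjusted p = 0.244 in edgeR, 0.0357 in DESeq2). The adjusted edgeR p of that difference was 0.0162 when only these 2 groups were fitted and 0.0432 without replicate 1 at 400 ng/g.

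The second activator with a difference, pals-25, had 2.46, 3.12 and 2.69 CPM in the controls and 4.23, 4.74 and 4.69 CPM at 10000 ng/g. The groups did not overlap. The means were 2.76 ± 0.333 and 4.55 ± 0.280 CPM (SD, n = 3 each), a log2 difference of 0.72 ± 0.218 (SE), or 1.65-fold with a 95% interval of 1.19 to 2.29. Its adjusted p was 0.131 in edgeR and 0.0407 in DESeq2. At 400 ng/g pals-25 had 4.60, 3.39 and 3.13 CPM, the lowest of them barely above the highest control, and at 2000 ng/g it had 4.12, 3.86 and 2.71 CPM, which overlapped them. The log2 differences were 0.43 ± 0.218 (SE) at 400 ng/g and 0.37 ± 0.218 at 2000 ng/g, with adjusted edgeR p of 0.331 and 0.855. Without replicate 1 at 400 ng/g, the difference at that dose was 0.23 ± 0.223 (adjusted p = 0.533).

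The viral RNA sensor drh-1 was nearly level. It had 41.5, 37.7 and 32.1 CPM in the controls, 38.7, 40.4 and 30.1 CPM at 400 ng/g, 37.8, 39.1 and 36.8 CPM at 2000 ng/g, and 41.6, 38.4 and 32.5 CPM at 10000 ng/g. All 4 groups overlapped. At 10000 ng/g the fold was 1.01 with a 95% interval of 0.823 to 1.24 (adjusted p = 0.959 in edgeR).

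The repressors showed smaller differences than zip-1 and pals-25 at 10000 ng/g, and none passed the threshold. The gene pals-22 had 5.70, 4.71 and 4.53 CPM in the controls and 5.87, 5.75 and 5.62 CPM at 10000 ng/g. Its exposed libraries were close together, but control replicate 1 lay between them. The fold was 1.15 with a 95% interval of 0.911 to 1.46 (adjusted p = 0.466 in edgeR), and the log2 difference of 0.21 became 0.34 without that control. The gene pals-17 had 6.70, 3.90 and 5.57 CPM in the controls, the widest relative spread of a control group among the 6 genes, and 7.42, 6.43 and 6.29 CPM at 10000 ng/g, overlapping them. Its fold was 1.25 with a 95% interval of 0.935 to 1.66 (adjusted p = 0.355 in edgeR). The log2 difference of 0.32 was 0.54 without control replicate 1 and 0.13 without control replicate 2. The enzyme gene pnp-1 had 189, 239 and 267 CPM in the controls and 210, 239 and 221 CPM at 10000 ng/g, a fold of 0.963 with a 95% interval of 0.763 to 1.21 (adjusted p = 0.863 in edgeR).

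**Figure D2:**
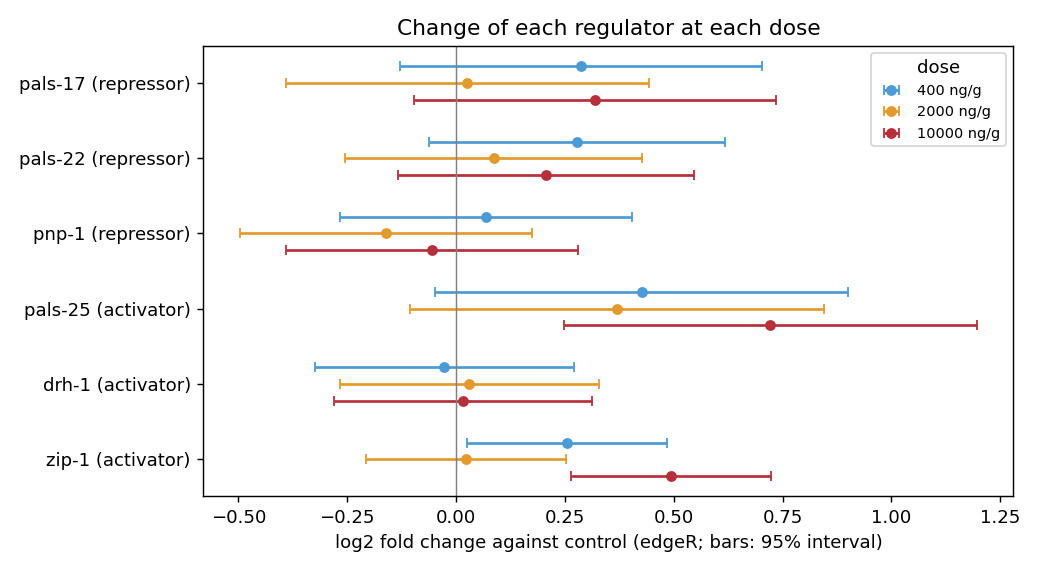
Log2 fold change of each regulator against control at 3 doses, from edgeR, with 95% intervals (bars). At 10000 ng/g the intervals of zip-1 and pals-25 lie above 0, and those of the other 4 genes include 0.

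At the lower doses the repressors also overlapped the controls. At 400 ng/g pals-22 had 6.72, 6.19 and 5.20 CPM and pals-17 had 5.88, 7.15 and 6.70 CPM, log2 differences of 0.28 ± 0.156 and 0.29 ± 0.191 (SE). For pals-17 the latter was 0.49 without control replicate 1 and 0.10 without control replicate 2. At 2000 ng/g pals-22 had 5.51, 5.38 and 4.97 CPM and the mean of pals-17 was 5.48 ± 0.162 CPM (SD, n = 3), and both log2 differences were below 0.1. The counts of pnp-1 gave 296, 204 and 230 CPM at 400 ng/g, where replicate 1 held the highest value of the 12 libraries, and 195, 207 and 221 CPM at 2000 ng/g. At 400 ng/g 0 of the 6 regulators passed the adjusted threshold and 0% of all genes did. There 1 of 6, pals-25, lay above all controls against 8.19% of all genes, and 1 of 6, zip-1, had an unadjusted p under 0.05 against 18.5%. At 2000 ng/g 0 of 6 passed, again with 0% of all genes past the threshold. At that dose 0 of 6 lay above all controls against 6.04% of all genes, and 0 of 6 had an unadjusted p under 0.05 against 5.15%. DESeq2 also called 0 of the 6 at 400 ng/g, where it called 8.89% of all genes it gave an adjusted p, and at 2000 ng/g, where it called 0.0201%.

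None of the comparisons across doses separated a regulator past the threshold in edgeR. The count past the adjusted threshold was 0 of 6 between 2000 and 400 ng/g (0% of all genes), between 10000 and 400 ng/g (0.0960%), between 10000 and 2000 ng/g (0.0480%), for a linear trend over the order of the doses (0.114%) and for any difference between the 4 groups (0.0840%). In each of the first 3, the unadjusted p of 1 of 6, zip-1, was under 0.05, against 9.25%, 9.5% and 10.2% of all genes. In the trend and the test of any difference those of 2 of 6, zip-1 and pals-25, were, against 13.8% and 17.6%. Over the order of the doses, pals-25 increased by 0.21 ± 0.0687 (SE) per step on the log2 scale (adjusted p = 0.251 in edgeR) and zip-1 by 0.12 ± 0.0333 (adjusted p = 0.189). The test of any difference gave adjusted p of 0.147 for zip-1 and 0.267 for pals-25 in edgeR. Without replicate 1 at 400 ng/g, zip-1 passed both tests, with adjusted p of 0.0325 for the trend and 0.0442 for any difference, and DESeq2 gave 0.00458 for any difference. By DESeq2, 1 of the 6 passed between 10000 and 2000 ng/g, with 0.729% of all genes given an adjusted p, and 1 for any difference, with 9.34%, zip-1 in both. It called 0 of 6 between 2000 and 400 ng/g (0.00403% of all genes), between 10000 and 400 ng/g (0.750%) and for the trend (1.76%).

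**Figure D3:**
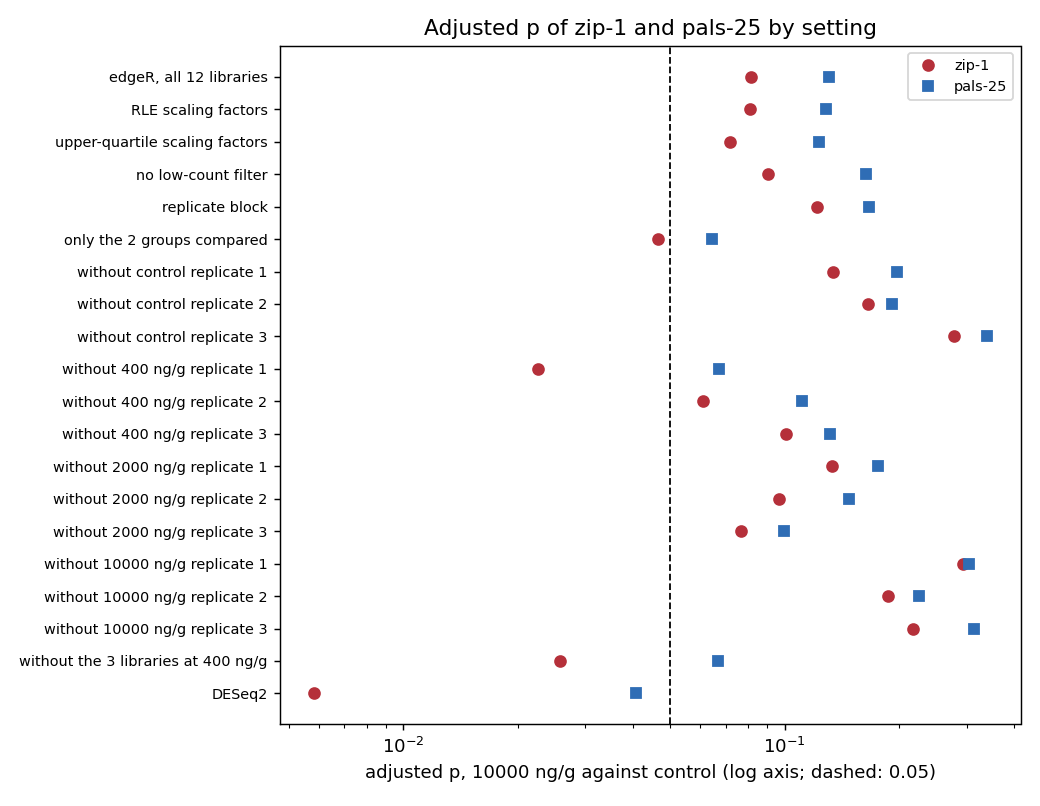
Adjusted p of zip-1 and pals-25 at 10000 ng/g against control under each way of fitting (log axis), with the threshold of 0.05 as a line. zip-1 falls on either side of the line, from 0.00582 to 0.294, and pals-25 is below it with DESeq2, at 0.0407.

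Because pals-22 and pals-25 are adjacent and encode a repressor and the activator it restrains, their levels were also compared within each library. The ratio of pals-22 to pals-25 in FPKM was above 1 in all 12 libraries. It rests on the same counts as the levels above and is not a separate observation. As a log2 ratio it was 1.48, 0.86 and 1.02 in the controls and 0.74, 0.54 and 0.53 at 10000 ng/g, and these groups did not overlap. The means were 1.12 ± 0.320 and 0.60 ± 0.117 (SD, n = 3 each), a difference of -0.52 with p = 0.1 in a two-sided exact permutation test, the smallest p that 3 libraries against 3 can give. At 400 ng/g the log2 ratio was 0.81, 1.13 and 1.00, a difference of -0.14 (exact p = 0.6). At 2000 ng/g it was 0.68, 0.74 and 1.14, a difference of -0.26 (exact p = 0.4). Both lower doses overlapped the controls.

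**Figure D4:**
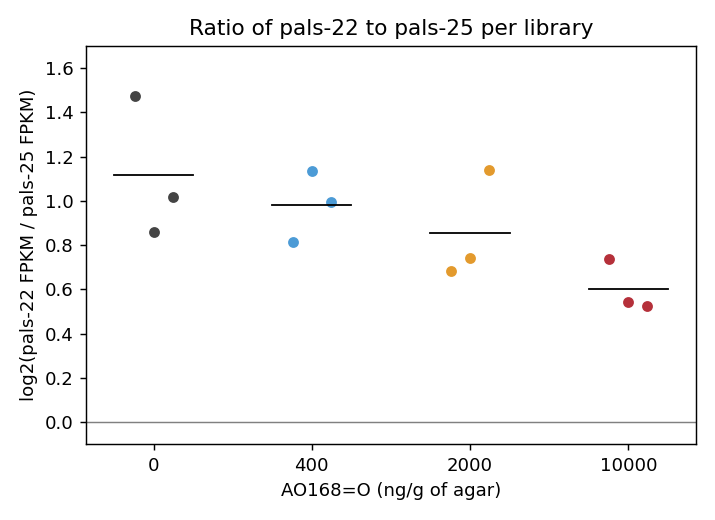
Log2 ratio of pals-22 to pals-25 in FPKM in each library, with group means, by dose. The 3 libraries at 10000 ng/g lie between 0.53 and 0.74, below the lowest control at 0.86, and those at 400 and 2000 ng/g overlap the controls.

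The other pals genes, many of which these regulators govern, served as the measure of the response. Of 35 with counts, 29 were tested, and at 10000 ng/g 7 rose and 0 fell in edgeR (18 rose and 0 fell in DESeq2), with a median log2 difference of 1.419 against -0.01 over all genes. Over all genes 0.252% passed in edgeR, and 6.02% of those given an adjusted p did in DESeq2. The 29 pals genes had been listed with the results of these samples known, so the count is not independent evidence. One of them, pals-5, the usual reporter gene of the response, rose from at most 0.476 CPM in the controls to between 1.84 and 2.78 CPM (log2 difference 2.86 ± 0.497, SE; adjusted p = 0.0476 in edgeR). At 400 and 2000 ng/g 0 of 29 passed in either direction by both tools, with 1 unadjusted edgeR p under 0.05 at each dose and medians of 0.21 and 0.15. The mean log2 CPM of the 29 exceeded the control mean by 1.62, 1.54 and 1.26 in the libraries at 10000 ng/g, which lay apart from all others. The relation to the regulators was therefore examined within the other 9 libraries.

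In these 9 libraries the correlations of the 6 regulators with the mean of the other pals genes did not pass the threshold, and their order changed with the libraries used. For pals-25 Pearson's r was 0.60 (permutation p = 0.0915, adjusted over the 6 genes 0.359) and Spearman's rho 0.58 (permutation p = 0.110, adjusted 0.459). For zip-1 r was 0.56 (permutation p = 0.120, adjusted 0.359) and rho 0.48 (permutation p = 0.193, adjusted 0.459). Without the 2 libraries farthest from the median, r was 0.74 for pals-25 and 0.75 for zip-1, but the highest of the 6 was then that of the repressor pals-22, at 0.82 (permutation p = 0.0213, adjusted 0.128). With group means subtracted, r was 0.80 for zip-1, 0.72 for pnp-1, 0.50 for pals-25 and -0.65 for pals-17. Over all 9 libraries the other 4 genes had r of 0.45 for pnp-1, 0.03 for pals-22, -0.26 for drh-1 and -0.39 for pals-17, with adjusted permutation p from 0.435 to 0.932. Those of pals-17 and drh-1 turned positive, to 0.25 and 0.42, without the 2 farthest libraries, and that of pals-22 moved from 0.03 to 0.82, so that these 3 values rest on those libraries.

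**Figure D5:**
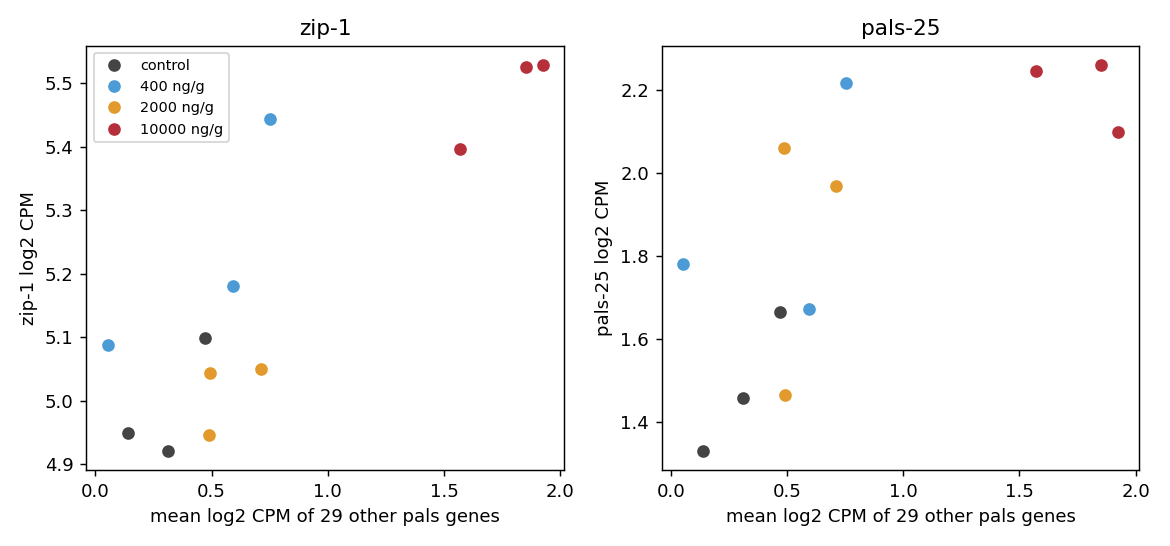
Log2 CPM of zip-1 and pals-25 against the mean log2 CPM of 29 other pals genes, 1 point per library coloured by dose. The 3 libraries at 10000 ng/g lie to the right of the other 9, separated by 0.82 on the x axis.

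Other genes of the pathway were read against the same background at 10000 ng/g. There 0.252% of all genes passed in edgeR, and 6.02% of those given an adjusted p did in DESeq2. The unadjusted edgeR p was under 0.05 for 20.6% of all genes. The other known regulators are pals-16 and pals-20, family members that act on the response, and sta-1, a STAT-like repressor of antiviral genes. Of these, 0 of 3 rose or fell at 10000 ng/g in edgeR or DESeq2, and 1 had an unadjusted edgeR p under 0.05. The log2 differences there were 0.34 ± 0.153 (SE, adjusted p = 0.234 in edgeR) for sta-1 and under 0.01 in size for pals-16, whose control and exposed means were both 3.05 CPM. The level of pals-20 was at most 0.480 CPM in the libraries at 10000 ng/g. Of the antiviral RNA interference genes that share the DRH-1 pathway, 8 of 10 were tested and 0 rose or fell by either tool, with 1 unadjusted edgeR p under 0.05 and a median log2 difference of 0.14. Examples are rrf-1, an RNA-dependent RNA polymerase, at 0.42 ± 0.159 (SE, adjusted p = 0.176), the Argonaute gene rde-1 at 0.31 (adjusted p = 0.333), dcr-1, which encodes Dicer, at 0.24 (adjusted p = 0.551), the helicase gene drh-3 at 0.13 (adjusted p = 0.716) and rde-4, which encodes a double-stranded RNA binding protein, at 0.02 (adjusted p = 0.905). Of 5 host factors of Orsay virus, 0 rose or fell by either tool and 0 had an unadjusted edgeR p under 0.05, with a median of 0.06.

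Targets of the response outside the pals family did include genes that rose. Of 23 listed 14 were tested, and at 10000 ng/g 4 rose and 0 fell in edgeR, 7 rose in DESeq2, and the median log2 difference was 1.33. The 4 were B0507.8, ddn-1, F42C5.3 and T08E11.1, of which the last 2 are named after their values were seen. This list too was chosen with earlier results of these data known, so its counts are not independent evidence. Over all genes 0.252% passed in edgeR, and 6.02% of those given an adjusted p did in DESeq2. The share with an unadjusted edgeR p under 0.05 was 20.6%. The cullin gene cul-6, a subunit of a ubiquitin ligase, had 4.11 ± 0.548 CPM in the controls and 6.13 ± 0.537 CPM at 10000 ng/g (SD, n = 3 each), a log2 difference of 0.58 ± 0.187 (SE) with an adjusted p of 0.144 in edgeR. Of the chitinase-like chil genes, which mark the oomycete response that pals-22 also regulates, 18 of 26 were tested. In edgeR 0 rose or fell and 4 had an unadjusted p under 0.05, 2 rose in DESeq2, and the median was 0.31. For pnp-1, the other genes of purine synthesis and salvage gave 0 of 13 in either direction by both tools, 1 unadjusted edgeR p under 0.05 and a median of 0.07. For zip-1, the other bZIP factors gave 0 of 23 in edgeR, 1 higher in DESeq2, 4 unadjusted edgeR p under 0.05 and a median of 0.05.

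The genomic neighbours were measured because reads of overlapping genes on opposite strands could be shared. Exons of zip-1 overlap the span of pph-4.1, a phosphatase gene on the minus strand, by 62 bases. The level of pph-4.1 was 50.6 ± 2.98 CPM in the controls and 44.0 ± 0.915 CPM at 10000 ng/g (SD, n = 3 each), a log2 difference of -0.20 ± 0.133 (SE, adjusted p = 0.397 in edgeR), opposite in sign to that of zip-1. The neighbouring bZIP gene zip-12, which ends 1469 bases before zip-1, had a log2 difference of 0.22 (adjusted p = 0.404). Y75B8A.55, an annotated noncoding RNA within an intron of zip-1, had no counts in the 12 libraries.

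Markers of tissues and stage also differed between the groups. As background at 10000 ng/g, 0.252% of all genes passed in edgeR and 6.02% of those given an adjusted p did in DESeq2. The unadjusted edgeR p was under 0.05 for 20.6% of all genes. At 400 ng/g these shares were 0%, 8.89% and 18.5%. Markers of the germ line, sperm and adult cuticle were mostly lower at 10000 ng/g than in the controls, and those of neurons mostly higher. The summed level of 8 intestine markers ran from 2375 to 3707 CPM in the controls and from 2830 to 3264 CPM at 10000 ng/g, within the control range, and 0 of 8 rose or fell by either tool, with 3 unadjusted edgeR p under 0.05. These 3 were higher, with log2 differences of 0.37 for elt-2, 0.39 for ges-1 and 0.49 for mtl-2. Over the 8 intestine markers, 5 were positive and 3 negative, with a median of 0.06 and a lowest value of -0.14. The 4 epidermis markers summed to between 302 and 350 CPM in the controls and 285 and 334 CPM at 10000 ng/g, and the 4 body muscle markers to between 7364 and 9438 CPM and 7705 and 9224 CPM. The 5 neuron markers summed to between 221 and 256 CPM in the controls, 251 and 304 CPM at 400 ng/g, 227 and 266 CPM at 2000 ng/g, and 248 and 263 CPM at 10000 ng/g. Of the neuron markers 5 of 5 were positive at 400 ng/g (median log2 difference 0.37) and 4 of 5 at 10000 ng/g (median 0.30), with 0 past the threshold by either tool and unadjusted edgeR p under 0.05 for 3 and 2. Germ-line markers summed to between 1080 and 1225 CPM in the controls, 887 and 906 CPM at 400 ng/g, 902 and 1191 CPM at 2000 ng/g, and 803 and 910 CPM at 10000 ng/g. Sperm markers summed to between 819 and 1839 CPM in the controls, 197 and 565 CPM at 400 ng/g, 395 and 984 CPM at 2000 ng/g, and 323 and 655 CPM at 10000 ng/g. Adult cuticle markers likewise ran from 1148 to 1494 CPM in the controls and from 794 to 938 CPM at 400 ng/g. They ran from 965 to 1322 CPM at 2000 ng/g and from 863 to 947 CPM at 10000 ng/g. Their median log2 difference at 400 ng/g was -0.90, with 2 lower in DESeq2 and 0 past the threshold in edgeR. At 10000 ng/g the median log2 differences were -0.39 over 6 germ-line, -1.33 over 29 sperm and -0.77 over 5 adult cuticle markers, with 0 past the threshold in each list in edgeR. DESeq2 put 3 germ-line, 9 sperm and 0 adult cuticle markers past it, all lower, and the unadjusted edgeR p was under 0.05 for 5, 27 and 2. At 400 ng/g, where the log2 difference of zip-1 was 0.26, 29 of 29 sperm markers were negative, with a median of -1.84. There 28 were lower in DESeq2 and 29 had an unadjusted edgeR p under 0.05. At 2000 ng/g, where the log2 difference of zip-1 was 0.02, 29 of 29 sperm markers were also negative, with a median of -0.94. Of these lists, 2 sperm markers were at 0 in at least 1 library. The part of these markers in the levels of zip-1 and pals-25 was not tested.

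For each regulator, the genes with the most similar pattern were taken by Pearson's r of log2 CPM over the 12 libraries among 10502 genes with a mean of at least 5 CPM (10503 for pals-25). They are given as a description, since the points share the dose groups and the separation at 400 ng/g. The pattern of zip-1 was closest to idpp-16 (r = 0.95), egl-44, a TEA-domain factor gene (0.94), and lin-14, a developmental timing gene (0.94). That of pals-25 was closest to T10B10.4 (0.93), myrf-2 (0.92) and Y73F4A.2 (0.92), of which Y73F4A.2 rose at 10000 ng/g with a log2 difference of 0.86 (adjusted p = 0.0399 in edgeR). The closest to pals-22 was ZK228.4 (0.95), to pals-17 the collagen gene col-80 (0.82), to drh-1 the helicase gene rha-2 (0.88) and mitochondrial fusion gene eat-3 (0.87), and to pnp-1 a feature without a gene name (0.97) and the ubiquitin ligase gene siah-1 (0.96). With group means subtracted, r was 0.89 for zip-1 with idpp-16, 0.80 for pals-25 with T10B10.4, 0.91 for pals-22 with ZK228.4, 0.77 for pals-17 with col-80, 0.91 for drh-1 with rha-2 and 0.97 for pnp-1 with siah-1.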

How the data were processed

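The authors deposited raw read counts per gene and FPKM values of the 12 libraries. The tools named in the submitters' processing notes are featureCounts 2.0.6, DESeq2 1.42.0, HISAT2 2.2.1 and CASAVA, and per the labels the reads were paired and of 150 bases. How reads were counted by strand, how several matches were handled and which genome build was used is not given here in any source, so reads shared by overlapping genes or by similar pals genes may be split in a way the counts do not show. In the count table, 46926 of 46987 features had the coordinates of WBcel235 in Ensembl. The other 61 features did not have them. Features with no gene name held 0.0167% to 0.0249% of the counts per library. Within each library, count divided by length and by FPKM was a single value, varying by at most 6.54e-07 percent among genes above 50 counts.

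Counts were tested with edgeR 4.0.16 in R 4.3.3 (TMM factors, filterByExpr, a mean per group, a common dispersion of 0.0579, 8 residual degrees of freedom), two-sided, over 16665 genes. The SE was taken as log2 fold change over the root of F. CPM uses TMM library sizes, and levels are compared between genes in FPKM. Log2 CPM has a prior count of 2. Correlation p-values came from permutations of libraries. They had been planned over all 12 libraries and were computed over 9, because the libraries at 10000 ng/g form a separate cluster. Libraries of the same group differed beyond counting noise in all 12 pairs (chi-square of 12.6 or more for each degree of freedom). The fits were tested on simulated data.

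The members and the gene lists were chosen with earlier results of these data known. Named genes were the 6 members, the 5 genes most alike to each, up to 3 per list by p at 10000 ng/g with at least 5 CPM, overlapping and neighbouring genes, and pals-5, pals-16, pals-20, cul-6, rde-1, rde-4, dcr-1 and drh-3. Not all of these are printed. Alternatives were other scaling factors, no filter, a replicate block, DESeq2 1.42.0, a trend over the dose itself, fits of only the groups compared and leaving out each library; leaving out all 3 libraries at 400 ng/g was chosen after seeing the data.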

Additional observations from a re-analysis of the deposited data

How the results depend on the processing

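Of the 8 comparisons, those of 400 and 2000 ng/g with control, 2000 with 400 ng/g and 10000 with 400 ng/g had 0 of 6 regulators past the threshold under every alternative. At 10000 ng/g against control the number was 1 with only the groups compared, 1 without the 3 libraries at 400 ng/g and 2 with DESeq2. Between 10000 and 2000 ng/g it was 1 with only the groups compared and 1 with DESeq2, where all genes past the threshold numbered 901 and 124 in place of 8. For any difference it was 1 with DESeq2, where they numbered 1590 in place of 14. Leaving out each library gave 0 to 1 for 10000 ng/g against control, for 10000 against 2000 ng/g, for the trend and for any difference, and the 1 was zip-1 without replicate 1 at 400 ng/g in each. Genes past the threshold at 10000 ng/g numbered 42, 431 with only the groups compared, 523 without replicate 1 at 400 ng/g, 609 without the 3 libraries at 400 ng/g, 969 with DESeq2 and 4 without control replicate 1 or replicate 3. At 400 ng/g they numbered 0, 930 with no filter, 1553 with DESeq2, 660 without replicate 3 at 400 ng/g and 903 without replicate 3 at 2000 ng/g. The cause was not tested.

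Same-numbered libraries of different groups had correlated deviations from -0.47 to 0.34 over 18 pairs, and 3 of 12 libraries correlated best with their own number. Such correlations over all genes show no pairing by number but cannot exclude one. The levels of drh-1 and pals-22 were lowest in replicate 3 of all 4 groups, and pals-22 fell from replicate 1 to 3 in each. The SE of drh-1 at 10000 ng/g against control was 0.136, and 0.102 with a replicate block. That of pals-22 was 0.156, and 0.151 with the block. With the replicate block, 12 genes passed at 10000 ng/g and 579 at 400 ng/g, the adjusted p of zip-1 at 10000 ng/g was 0.121, and 0 of 6 regulators passed in any comparison.

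Of 876 values of the members under alternatives, 25 changed sign, none of them past the threshold. With upper-quartile factors drh-1 between 10000 and 2000 ng/g was 0.012. Leaving out each library, log2 differences that changed sign ran, at 400 ng/g against control, from -0.10 to 0.20 for pnp-1 and from -0.12 to 0.082 for drh-1. At 2000 ng/g they ran from -0.16 to 0.24 for pals-17, from -0.065 to 0.14 for drh-1 and from -0.012 to 0.079 for zip-1. At 10000 ng/g they ran from -0.15 to 0.057 for pnp-1 and from -0.079 to 0.13 for drh-1. Between 2000 and 400 ng/g the ranges were -0.18 to 0.15 for pals-25 and -0.041 to 0.13 for drh-1. Between 10000 and 400 ng/g they were -0.047 to 0.099 for pals-17, -0.14 to 0.022 for pals-22, -0.24 to 0.050 for pnp-1 and -0.049 to 0.16 for drh-1. For drh-1 they were -0.096 to 0.091 between 10000 and 2000 ng/g and -0.018 to 0.046 for the trend. The log2 ratio of pals-22 to pals-25 against control had a range of -0.26 to 0.043 for 400 ng/g, of -0.40 to -0.082 for 2000 ng/g, and of -0.64 to -0.34 for 10000 ng/g, where the exact p was 0.1 to 0.2. The correlation with the other pals genes became 0.25 for pals-17, 0.42 for drh-1 and 0.82 for pals-22 without the 2 farthest libraries and -0.17 for pals-22 within groups, and for pals-22 it ran from -0.43 to 0.39 when each library was left out.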

Other observations

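Among the 15 pairs of regulators, the levels of pals-25 and zip-1 were the most alike over the 12 libraries. Pearson's r was 0.76 (permutation p = 0.00672, adjusted over the 15 pairs 0.101) and Spearman's rho 0.73. These permutations ignored the dose groups, so the p also reflects differences between groups, and both genes had their highest mean at 10000 ng/g. The r was 0.67 without the 2 libraries farthest from the median and 0.45 with group means subtracted. In that last setting other pairs were more alike, pals-22 with drh-1 at 0.79 and pnp-1 with zip-1 at 0.64. Both pals-22 and drh-1 were lowest in replicate 3 of all 4 groups. The neighbours pals-22 and pals-25 had r = 0.59, as had the repressors pals-17 and pals-22 (adjusted permutation p = 0.225 for the latter). None of the 15 passed the threshold.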
